A study of Mus musculus with 20 samples.

Results

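Iron handling and hepcidin genes were followed in livers of mice given CMP013. They are Hamp, Hamp2, Tfrc, Tfr2, Trf, Fth1, Slc40a1, Hfe, Bmp6 and Id1, and every probe set whose platform symbol is exactly one of these names was used. A probe set is a group of short probes on the array meant to read 1 gene's transcripts, though some probe sets name several genes. The rule gave 17 probe sets of 45037 on the array, for 9 of the 10 genes and 9 of 18193 genes in all. Trf, the iron carrier transferrin, has no probe set of its own, because its probe set also names Srprb, and it was not used. Liver RNA of single animals was profiled on Affymetrix Mouse430_2 arrays, 1 array per mouse. CMP013 is a drug candidate that inhibits beta-secretase, the enzyme that starts the cleavage of amyloid precursor protein, and PXR is a nuclear receptor that switches on drug-metabolizing genes when it binds foreign compounds. The comparison asked which hepatic responses to CMP013 differ when PXR is absent.

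The 4 groups held 5 male mice each, 9 weeks old at the start and killed at 96 h. PXR-KO mice (PXR-/-) received CMP013 at 150 mg/kg by oral gavage every 24 h or an acidified aqueous vehicle at 0 mg/kg. WT mice (PXR+/+) received the same dose of CMP013 or the same vehicle. The strain label is C57BL/6 in all groups, but the source label is C57BL/6NTac for PXR-KO mice and C57BL/6 for WT mice, so genotype and source cannot be told apart. All mice were fasted for the last hours before necropsy. RNA integrity numbers were 8.7 to 9.6 in PXR-KO mice and 9.3 to 10 in WT mice.

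Each value is the log2 ratio of 1 animal to the mean vehicle signal of its own genotype, so vehicle values scatter around 0 and a value of 1 means a doubling. The scale holds no absolute levels. Genes therefore cannot be ranked by abundance, the basal levels of the genotypes cannot be compared, and the loss of PXR and the liver origin of the RNA could not be checked from these values. The medians of the 20 arrays lay between -0.0275 and 0.0117, and no array was a copy of another (highest correlation of a pair across probe sets 0.593). In whole liver, fewer cells of a type and less RNA per cell cannot be told apart.

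Hepcidin, the product of Hamp, is a peptide hormone made by hepatocytes that binds ferroportin, the iron exporter encoded by Slc40a1, and sends it to degradation, which keeps iron in macrophages and enterocytes. Its transcription is driven by BMP6, a ligand secreted by liver sinusoidal endothelial cells that acts through SMAD proteins and also raises Id1, and by interleukin 6 through STAT3. HFE and transferrin receptor 2 report the iron load of plasma transferrin to this pathway. Transferrin receptor 1 (Tfrc) brings iron into the cell and ferritin (Fth1) stores it. Iron regulatory proteins stabilize Tfrc mRNA and block ferritin translation when cell iron is low.

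Mice carry Hamp and a neighbouring copy, Hamp2, and the 250 bases upstream of both starts are shown to let the control regions of the pair be compared. The sequences are from RefSeq on build GRCm38.p6, minus strand, at chr7:30944030-30944279 for Hamp and chr7:30924182-30924431 for Hamp2, written 5′ to 3′ up to the base before the annotated start. Capitals mark GGCGCC, the core letters of a BMP response element, and TTCNNNGAA, the letters of a STAT motif.
Hamp: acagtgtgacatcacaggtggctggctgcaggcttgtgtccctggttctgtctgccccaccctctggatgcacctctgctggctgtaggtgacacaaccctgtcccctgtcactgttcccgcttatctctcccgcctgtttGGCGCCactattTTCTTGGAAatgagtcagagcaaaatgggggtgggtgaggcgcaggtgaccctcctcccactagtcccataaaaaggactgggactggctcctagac
Hamp2: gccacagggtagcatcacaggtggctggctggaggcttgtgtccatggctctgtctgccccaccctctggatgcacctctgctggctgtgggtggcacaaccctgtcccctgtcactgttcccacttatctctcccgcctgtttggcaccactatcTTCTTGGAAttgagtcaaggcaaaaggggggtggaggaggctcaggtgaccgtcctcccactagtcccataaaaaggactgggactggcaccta
The sequences were identical at 227 of 253 aligned columns (89.7%), and Usf2-ps1 is annotated between the genes. GGCGCC began 109 bases before the start of Hamp and was not found in the Hamp2 window. TTCNNNGAA began 97 bases before the start of Hamp and 94 bases before that of Hamp2. Searched on both strands, GGCGCC occurred in 9.59% of 32851 mouse promoter windows of RefSeq and TTCNNNGAA in 7.02%. Of 11 windows matched to 7 of the genes described here, GGCGCC was found in those of Hamp and Tfrc, and TTCNNNGAA in those of Hamp and Hamp2. These matches describe letters and not bound sites.

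In PXR-KO mice, 3 of the 17 probe sets passed the test, and all 3 rose (2.12% of all probe sets were called higher): Tfrc 1452661_at, Slc40a1 1448566_at and Id1 1425895_a_at. The test was limma with Benjamini-Hochberg adjustment over all 45037 probe sets at an adjusted p under 0.05, a threshold passed by 3.65% of all probe sets in this comparison. At an unadjusted p under 0.05, 7 of the 17 passed. The share of all probe sets at that looser threshold was not counted, so this 7 cannot be set against the 3.65%. In WT mice 14 of 17 passed, against 14.4% of all probe sets. Of these, 6 were higher, from Tfrc, Fth1 and Hfe (7.67% of all probe sets were). The other 8 were lower, from Hamp, Hamp2 by 1436643_x_at, Tfr2, Slc40a1 and Id1 (6.72% of all were). The responses themselves, PXR-KO minus WT, differed at 12 of 17 probe sets, against 11.0% of all, 8 of them positive (5.49% of all) and 4 negative (5.47% of all). The median log2 difference over the 17 was 0.16 in PXR-KO mice and -0.36 in WT mice, while over all probe sets it was 0.01 in PXR-KO mice and -0.01 in WT mice. Probe sets of 1 gene are not independent of each other. The 3 probe sets called in PXR-KO mice were also called in WT mice, and 1.27% of all probe sets were called in both genotypes. Of these 3, Tfrc rose in both genotypes, whereas Slc40a1 and Id1 rose in PXR-KO mice and fell in WT mice. The PXR-KO count was 0 without CMP013 replicate 4 and 1 without vehicle replicate 3 or CMP013 replicate 2 of that genotype. Under all alternatives run, none of the 3 PXR-KO calls was kept. In WT mice 6 of 14 were (Hamp2 1436643_x_at, Tfrc 1422966_a_at and 1452661_at, both Slc40a1 probe sets and Hfe 1450702_at). For the difference 7 of 12 were (both Hamp and both Slc40a1 probe sets, Hamp2 1436643_x_at, Hfe 1450702_at and Id1).

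**Figure D1:**
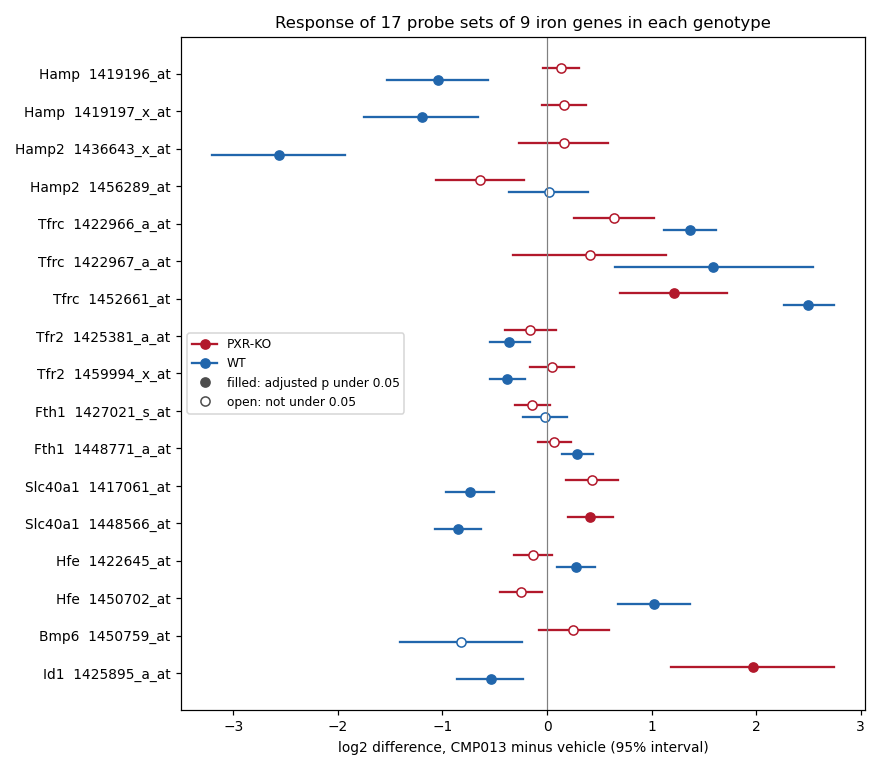
Log2 difference of CMP013 minus vehicle (horizontal axis, with 95% limma intervals) for the 17 probe sets, PXR-KO mice above WT mice in each line, n = 5 per group, filled where the adjusted p was under 0.05. The hepcidin probe sets 1419196_at, 1419197_x_at and 1436643_x_at lie near 0 in PXR-KO mice and between -2.56 and -1.04 in WT mice, and Id1 lies at 1.97 in PXR-KO mice and at -0.54 in WT mice.

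Hepcidin mRNA fell in CMP013-treated WT mice and did not pass the test in PXR-KO mice. Hamp by 1419196_at was 0.17, 0.10, 0.15, 0.17 and 0.07 in the 5 CMP013-treated PXR-KO mice, against -0.04, 0.11, 0.02, 0.05 and -0.13 in their vehicle controls. It was -1.45, -0.86, -0.59, -1.73 and -0.59 in the 5 CMP013-treated WT mice, against -0.01, 0.01, -0.04, 0.05 and -0.01 in WT vehicle controls. The PXR-KO groups overlapped, and every treated WT animal was below every WT control, with replicates 1 and 4 lowest. The log2 difference was 0.13 ± 0.08 (SE) in PXR-KO mice (adjusted p = 0.379) and -1.04 ± 0.22 in WT mice (adjusted p = 0.0109), where the level was 0.486 of the vehicle level. The responses differed by 1.17 (adjusted p = 0.00306). The second Hamp probe set, 1419197_x_at, gave 0.16 in PXR-KO mice (adjusted p = 0.366) and -1.20 in WT mice (adjusted p = 0.00992). Its responses differed by 1.36 (adjusted p = 0.00279). Its _x_at mark means that some probes can match other sequences, and matching to Hamp2 was not checked. After quantile normalization the WT call of 1419196_at was lost (adjusted p = 0.0568). Without 4 vehicle animals set apart by an earlier principal component view of these arrays (PXR-KO vehicle replicates 2 and 4, WT vehicle replicates 3 and 4), the WT calls were lost at adjusted p of 0.0641 for 1419196_at and 0.0601 for 1419197_x_at, and the differences of responses kept theirs at 0.0295 and 0.0239. Both the WT calls and the differences passed with each animal left out in turn.

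Hamp2, whose peptide is not known to act on iron in the mouse, was read by 2 probe sets that did not go together. By 1436643_x_at it was 0.38, 0.18, 0.00, 0.37 and -0.11 in the 5 CMP013-treated PXR-KO mice, against 0.53, 0.23, 0.03, -0.25 and -0.49 in their vehicle controls. It was -2.71, -1.83, -2.04, -3.44 and -2.97 in the 5 CMP013-treated WT mice, against 0.12, -0.36, 0.22, -0.10 and -0.04 in WT vehicle controls. Treated WT mice all lay below their controls, at a log2 difference of -2.56 ± 0.29 (SE, adjusted p = 0.000416) or 0.169 of the vehicle level, and PXR-KO groups overlapped at 0.16 ± 0.19 (adjusted p = 0.694). The difference between the responses was 2.72 (adjusted p = 8.17e-05), the highest of the 17 probe sets. The mark _x_at means that some probes can match other sequences, and the signal was not assigned to Hamp2 alone. Matching of these probes to Hamp was not checked, so the Hamp and Hamp2 results may share signal. By 1456289_at, without that mark, Hamp2 ranged from -1.05 to -0.32 in treated PXR-KO mice and from -0.48 to 0.30 in their controls, a log2 difference of -0.64 (adjusted p = 0.094). The same probe set ranged from -0.36 to 0.33 in treated WT mice and from -0.37 to 0.27 in WT controls, at 0.02 (adjusted p = 0.963). The mean of both probe sets was -0.24 in PXR-KO mice and -1.27 in WT mice. With all 4 groups in one fit, 1456289_at was called lower in PXR-KO mice (adjusted p = 0.042).

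Ferroportin mRNA moved in opposite directions in the 2 genotypes. Slc40a1 by 1448566_at was 0.39, 0.59, 0.42, 0.27 and 0.25 in the 5 CMP013-treated PXR-KO mice, against -0.01, 0.02, 0.13, -0.15 and -0.13 in their vehicle controls. It was -1.12, -0.82, -0.90, -0.73 and -0.69 in the 5 CMP013-treated WT mice, against -0.05, 0.12, -0.02, -0.03 and -0.02 in WT vehicle controls. Treated and control animals did not overlap in either genotype, the treated being higher in PXR-KO mice and lower in WT mice. On the log2 scale Slc40a1 differed by 0.41 ± 0.10 (SE) in PXR-KO mice (adjusted p = 0.0476), or 1.33 times the vehicle level, and -0.85 ± 0.10 in WT mice (adjusted p = 0.000512), or 0.554 of the vehicle level. The PXR-KO call was lost when any 1 of the 10 PXR-KO animals was left out, at adjusted p of 0.0549 to 0.106, whereas the WT call was kept throughout. The responses differed by 1.27 (adjusted p = 6.76e-06), the lowest adjusted p of the 17. The second probe set, 1417061_at, ranged from 0.31 to 0.68 in treated PXR-KO mice and from -0.25 to 0.16 in their controls, a difference of 0.43 that did not pass (adjusted p = 0.066). In WT mice it ranged from -0.89 to -0.59 under CMP013 and from -0.17 to 0.15 under vehicle, a fall of -0.74 (adjusted p = 0.00134). Its responses differed by 1.17 (adjusted p = 4.45e-05).

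**Figure D2:**
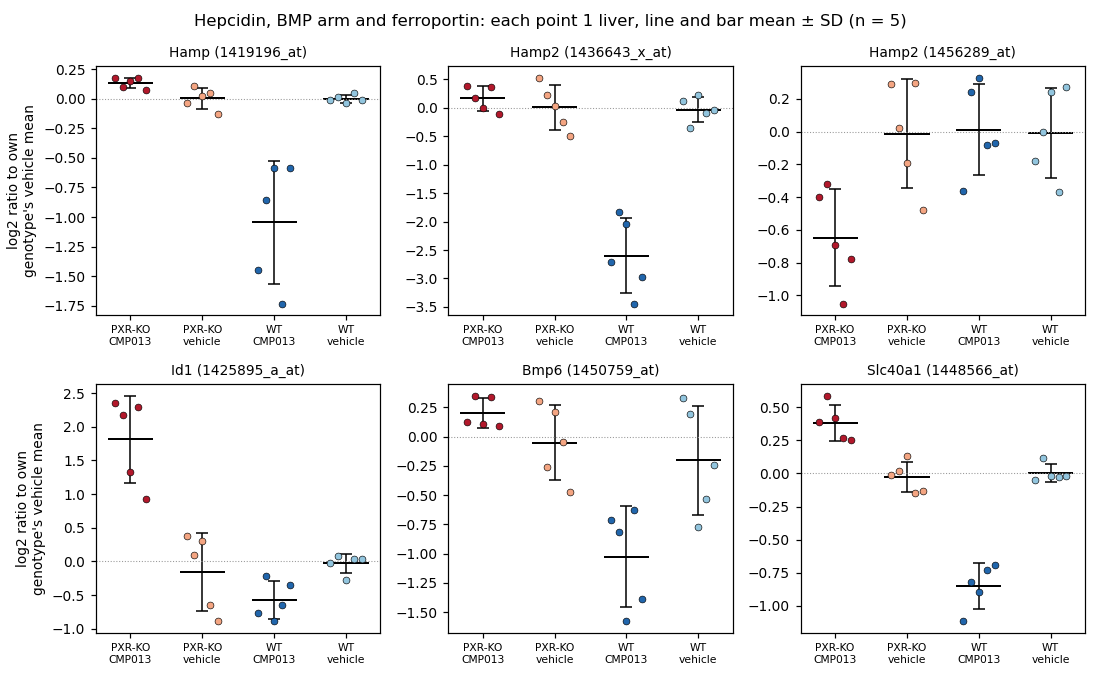
Log2 ratio of each liver to the vehicle mean of its own genotype (vertical axis) for hepcidin, BMP pathway and ferroportin probe sets in the 4 groups, with mean and SD (n = 5). Treated WT mice lie at -1.73 to -0.59 for Hamp and -1.12 to -0.69 for Slc40a1, below all WT controls, and treated PXR-KO mice lie at 0.92 to 2.35 for Id1, above all PXR-KO controls.

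Id1, a target gene of BMP signalling that encodes an inhibitor of basic helix-loop-helix transcription factors, had the largest rise among the 17 probe sets in PXR-KO mice. Id1 1425895_a_at was 2.35, 2.17, 1.33, 2.30 and 0.92 in the 5 CMP013-treated PXR-KO mice, against 0.38, 0.09, 0.30, -0.64 and -0.89 in their vehicle controls. It was -0.77, -0.22, -0.88, -0.65 and -0.35 in the 5 CMP013-treated WT mice, against -0.02, 0.08, -0.28, 0.04 and 0.03 in WT vehicle controls. All treated PXR-KO mice were above their controls, and 4 of 5 treated WT mice were below every WT control, with replicate 2 inside the range of the controls. On the log2 scale Id1 differed by 1.97 ± 0.35 (SE) in PXR-KO mice (adjusted p = 0.0171), or 3.91 times the vehicle level, and -0.54 ± 0.14 in WT mice (adjusted p = 0.0293), or 0.686 of it. The difference between responses was 2.51 (adjusted p = 0.000433), a call kept when any animal was left out. The PXR-KO call was lost without CMP013 replicate 4 (adjusted p = 0.0516). It was also lost after quantile normalization (adjusted p = 0.0521), with the replicate block (0.0586), with trend and robust variances (0.0629) and without the 4 vehicle animals (0.0978). The WT call was lost without vehicle replicate 1, 2, 4 or 5 or CMP013 replicate 1, 3 or 4, at adjusted p of 0.0623 to 0.0648. All 4 groups in one fit (adjusted p = 0.208), quantile normalization (0.159) and leaving out the 4 vehicle animals (0.0714) also lost the WT call.

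Bmp6, the ligand that drives hepcidin transcription, was 0.12, 0.35, 0.11, 0.34 and 0.09 in the 5 CMP013-treated PXR-KO mice, against 0.30, -0.26, 0.21, -0.05 and -0.47 in their vehicle controls. It was -0.71, -0.82, -1.58, -0.63 and -1.39 in the 5 CMP013-treated WT mice, against 0.33, 0.19, -0.77, -0.53 and -0.24 in WT vehicle controls. Groups overlapped in both genotypes. On the log2 scale Bmp6 differed by 0.25 ± 0.15 (SE) in PXR-KO mice (adjusted p = 0.384) and -0.82 ± 0.26 in WT mice (adjusted p = 0.0642), and neither passed. Their difference of 1.08 passed (adjusted p = 0.0327), but not without WT vehicle replicate 1 or 2, WT CMP013 replicate 3 or 5, PXR-KO vehicle replicate 2 or 5, or PXR-KO CMP013 replicate 2 or 4, at adjusted p of 0.0581 to 0.0624. The difference was also lost after quantile normalization (adjusted p = 0.294). The WT response, which just missed the threshold, passed without WT vehicle replicate 3 (adjusted p = 0.0443), with the replicate block (0.0491), with all 4 groups in one fit (0.0135) and without the 4 vehicle animals (-1.12, adjusted p = 0.0414), and ranged up to an adjusted p of 0.337 after quantile normalization.

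Hfe, a membrane protein that links transferrin saturation to hepcidin, rose in WT mice and did not pass the test in PXR-KO mice. By 1450702_at it was -0.40, -0.28, -0.18, -0.28 and -0.08 in the 5 CMP013-treated PXR-KO mice, against -0.11, 0.14, 0.00, -0.07 and 0.08 in their vehicle controls. It was 1.03, 0.79, 0.98, 0.99 and 0.77 in the 5 CMP013-treated WT mice, against -0.24, 0.23, -0.39, -0.41 and 0.25 in WT vehicle controls. Treated WT mice were all above their controls, and 4 of 5 treated PXR-KO mice were below theirs. The log2 difference was -0.25 ± 0.09 (SE) in PXR-KO mice (adjusted p = 0.165) and 1.02 ± 0.15 in WT mice (adjusted p = 0.00202), or 2.03 times the vehicle level. The responses differed by -1.27 (adjusted p = 0.000132). The other Hfe probe set, 1422645_at, gave smaller values of the same signs, -0.13 in PXR-KO mice (adjusted p = 0.396), 0.28 in WT mice (adjusted p = 0.0427) and a difference of -0.42 (adjusted p = 0.0119). Its WT call was kept only without vehicle replicate 2 among the 10 left-out cases and was otherwise at adjusted p of 0.0603 to 0.102.

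Transferrin receptor 2, the hepatocyte partner of HFE, had the smallest called decreases of the 17 probe sets in WT mice. Tfr2 1459994_x_at was 0.26, 0.12, -0.16, 0.08 and -0.06 in the 5 CMP013-treated PXR-KO mice, against 0.00, 0.01, 0.02, -0.01 and -0.02 in their vehicle controls. It was -0.32, -0.37, -0.33, -0.37 and -0.49 in the 5 CMP013-treated WT mice, against 0.09, -0.05, -0.09, 0.00 and 0.06 in WT vehicle controls. The WT groups did not overlap and the PXR-KO groups did. The log2 difference was 0.05 in PXR-KO mice (adjusted p = 0.813) and -0.38 in WT mice (adjusted p = 0.00962), and the responses differed by 0.43 (adjusted p = 0.0158). This WT call was lost after quantile normalization (adjusted p = 0.102) and with the replicate block (0.0787). The difference was lost after quantile normalization (adjusted p = 0.168) and without the 4 vehicle animals (0.0689). By 1425381_a_at, Tfr2 ranged from -0.36 to 0.09 in treated PXR-KO mice and from -0.20 to 0.14 in controls, and from -0.54 to -0.26 in treated WT mice and from -0.11 to 0.11 in controls. That probe set gave -0.16 in PXR-KO mice (adjusted p = 0.471) and -0.36 in WT mice (adjusted p = 0.0225), with a difference of 0.20 that did not pass (adjusted p = 0.376, 95% interval -0.08 to 0.48). Its WT call was lost without vehicle replicate 1, 3 or 4, at adjusted p of 0.0502 to 0.0595.

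Transferrin receptor 1 mRNA rose in WT mice by every Tfrc probe set and, by the test, in PXR-KO mice by 1452661_at alone. The log2 difference was larger in WT mice. Tfrc 1452661_at was 0.89, 1.05, 1.12, 0.96 and 1.68 in the 5 CMP013-treated PXR-KO mice, against 0.02, -0.69, -0.24, 0.01 and 0.57 in their vehicle controls. It was 2.71, 2.38, 2.39, 2.62 and 2.63 in the 5 CMP013-treated WT mice, against -0.20, 0.16, 0.07, 0.08 and 0.11 in WT vehicle controls. Treated animals were above controls in both genotypes, and the highest treated PXR-KO mouse, at 1.68, was below the lowest treated WT mouse, at 2.38. The log2 difference was 1.21 ± 0.23 (SE) in PXR-KO mice (adjusted p = 0.0223), or 2.31 times the vehicle level, and 2.50 ± 0.11 in WT mice (adjusted p = 1.11e-06), or 5.67 times. The responses differed by -1.30 (adjusted p = 0.00307), a difference that did not pass after quantile normalization (adjusted p = 0.169). The PXR-KO call was lost without vehicle replicate 3 or CMP013 replicate 2 or 4, at adjusted p of 0.0516 to 0.0553. Quantile normalization (adjusted p = 0.118) and the replicate block (0.0547) also lost it. So did trend and robust variances (0.0707) and leaving out the 4 vehicle animals (0.1).

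The other Tfrc probe sets had the same order of responses. Tfrc 1422966_a_at was 0.31, 0.52, 0.66, 0.22 and 0.95 in the 5 CMP013-treated PXR-KO mice, against -0.22, -0.48, -0.05, -0.02 and 0.25 in their vehicle controls. It was 1.58, 1.29, 1.05, 1.54 and 1.40 in the 5 CMP013-treated WT mice, against -0.11, 0.11, 0.09, -0.04 and -0.03 in WT vehicle controls. Only the WT groups were apart. This gave a log2 difference of 0.64 in PXR-KO mice (adjusted p = 0.0718) and 1.37 in WT mice (adjusted p = 8.29e-05), and the responses differed by -0.73 (adjusted p = 0.0278). That difference was lost without WT vehicle replicate 1, WT CMP013 replicate 1, PXR-KO vehicle replicate 5, or PXR-KO CMP013 replicate 1 or 4. The adjusted p was then 0.0504 to 0.0556. Quantile normalization (adjusted p = 0.342), trend and robust variances (0.0572) and leaving out the 4 vehicle animals (0.0556) also lost it. Tfrc 1422967_a_at scattered most among controls, from -1.40 to 0.40 in PXR-KO mice and from -1.76 to 0.47 in WT mice. It gave 0.41 in PXR-KO mice (adjusted p = 0.53) and 1.59 in WT mice (adjusted p = 0.0323), and its difference of -1.19 did not pass (adjusted p = 0.199). The WT call was lost without vehicle replicate 2 or 3 or CMP013 replicate 1, 2 or 4, at adjusted p of 0.0528 to 0.0715.

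**Figure D3:**
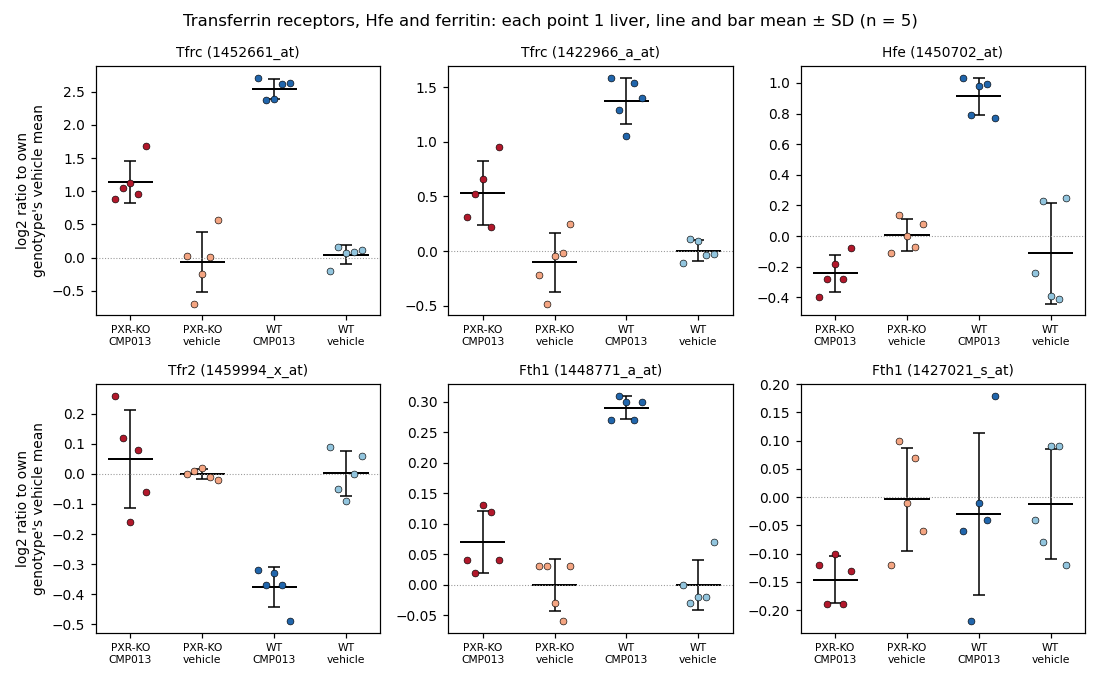
Log2 ratio of each liver to the vehicle mean of its own genotype (vertical axis) for Tfrc, Hfe, Tfr2 and Fth1 probe sets in the 4 groups, with mean and SD (n = 5). For Tfrc 1452661_at treated PXR-KO mice lie at 0.89 to 1.68 and treated WT mice at 2.38 to 2.71, and for Hfe 1450702_at treated PXR-KO mice lie at -0.40 to -0.08 and treated WT mice at 0.77 to 1.03.

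Ferritin heavy chain, the iron-oxidizing subunit of the storage shell, changed little. Fth1 1448771_a_at was 0.04, 0.02, 0.13, 0.12 and 0.04 in the 5 CMP013-treated PXR-KO mice, against 0.03, 0.03, -0.03, -0.06 and 0.03 in their vehicle controls. It was 0.27, 0.31, 0.30, 0.27 and 0.30 in the 5 CMP013-treated WT mice, against 0.00, -0.03, -0.02, -0.02 and 0.07 in WT vehicle controls. The PXR-KO groups overlapped and the WT groups did not. On the log2 scale Fth1 differed by 0.07 in PXR-KO mice (adjusted p = 0.627) and 0.29 in WT mice (adjusted p = 0.0187), or 1.22 times the vehicle level, and the difference of -0.22 did not pass (adjusted p = 0.0878, 95% interval -0.38 to -0.05). No treated WT mouse reached 1.25-fold. The WT call was lost after quantile normalization (adjusted p = 0.183), with the replicate block (0.119) and without the 4 vehicle animals (0.108). By 1427021_s_at, a probe set whose _s_at mark denotes probes shared between transcripts, the differences were -0.14 in PXR-KO mice (adjusted p = 0.351) and -0.02 in WT mice (adjusted p = 0.927).

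Across the 17 probe sets, 8 of 6 genes had a positive log2 difference in PXR-KO mice and a negative one in WT mice. They were those of Hamp, Hamp2 by 1436643_x_at, Tfr2 by 1459994_x_at, Slc40a1, Bmp6 and Id1. Of these 8, only Slc40a1 1448566_at and Id1 were called in both genotypes. The share of all probe sets with such signs was not counted. The same 8 had a difference of responses called positive, and opposite signs of this kind make that difference positive by arithmetic. The 4 called negative were Tfrc (2 probe sets), with a larger rise in WT mice, and Hfe (2 probe sets), with a rise in WT mice alone by the test. Groups did not overlap at 4 of 17 probe sets in PXR-KO mice, against 7.57% of all probe sets. The treated mice were higher at these 4 (4.07% of all) and lower at none (3.5% of all). In WT mice groups did not overlap at 13 of 17, against 14.7% of all. Treated WT mice were higher at 6 (7.78% of all) and lower at 7 (6.96% of all).

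The profiles closest to Hamp, Id1 and Tfrc were ranked by Pearson correlation over the 20 arrays, which lie in 4 groups and share vehicle means within a genotype, so the correlations follow the group differences. Closest to Hamp 1419196_at were Pip5k1a (0.95), Avil (0.95), Lmcd1, Hamp2 1436643_x_at and Prcp (0.92 each). The Hamp2 probe set carries the _x_at mark, and whether it also reads Hamp was not checked. Pip5k1a, a phosphatidylinositol phosphate kinase, had a log2 difference of 0.33 in PXR-KO mice (adjusted p = 0.338) and -2.09 in WT mice (adjusted p = 0.00239). Closest to Id1 were Dipk2a, Vps26a and Id2 1435176_a_at (0.95 each), then Myl12a and Nr1i3 (0.94 each). Nr1i3, which encodes the nuclear receptor CAR, gave 1.61 in PXR-KO mice (adjusted p = 0.00138) and -0.70 in WT mice (adjusted p = 0.0283). Closest to Tfrc 1422966_a_at were Tmem209, Lrrc46, Tm7sf3, Nus1 and Hmgn1 (0.94 each), all called higher in WT mice and none called in PXR-KO mice.

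Of 22 further genes of the pathways to hepcidin (BMP ligands, receptors and SMADs, their targets, and the interleukin 6 pathway), 21 were measured, each by 1 probe set. The list mixes activators, inhibitors such as Smad7, and targets, so a count of falls is not a count of losses of hepcidin drive. In PXR-KO mice 2 rose (Bmp2 and Id2) and 1 fell (Neo1), in WT mice none rose and 9 fell, and the difference of responses was positive for 10 and negative for 2 (Hjv and Neo1). The list's share of calls was 14.3% in PXR-KO mice, 42.9% in WT mice and 57.1% for the difference. Over all probe sets the shares were 3.65%, 14.4% and 11.0%. Here and in the lists below, these shares are not like for like. A list gene's probe set was picked for a small SD in the vehicle groups, which can favour a call. The share of all includes probe sets that name no gene. The median log2 difference of the regulators was 0.06 in PXR-KO mice and -0.20 in WT mice, beside 0.01 and -0.01 over all probe sets. Bmp2, the other endothelial BMP ligand for hepcidin, gave 0.53 in PXR-KO mice (adjusted p = 0.0294) and -0.79 in WT mice (adjusted p = 0.00752), with a difference of 1.31 (adjusted p = 0.000156). The BMP target Atoh8, a transcription factor, gave 0.82 in PXR-KO mice (adjusted p = 0.224) and -1.54 in WT mice (adjusted p = 0.00645), with a difference of 2.36 (adjusted p = 0.00319). Smad7, a feedback inhibitor of the pathway, gave 0.98 in PXR-KO mice (adjusted p = 0.0796) and -0.80 in WT mice (adjusted p = 0.0249), with a difference of 1.78 (adjusted p = 0.00288).

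Some receptor genes of both inputs to hepcidin were among the decreases in WT mice, and others did not pass. Named after their values were seen, the BMP receptor genes Bmpr1a (0.27, adjusted p = 0.11) and Acvr1 (-0.10, adjusted p = 0.634) were not called in WT mice. The BMP receptor gene Bmpr2 gave 0.04 in PXR-KO mice (adjusted p = 0.884) and -0.64 in WT mice (adjusted p = 0.00229). The interleukin 6 receptor Il6ra gave 0.35 in PXR-KO mice (adjusted p = 0.142) and -1.0 in WT mice (adjusted p = 0.0228), and its signalling partner Il6st gave 0.04 in PXR-KO mice (adjusted p = 0.872) and -0.53 in WT mice (adjusted p = 0.00169). Outside the naming rule and chosen after their values were seen, Id2, which like Id1 encodes an inhibitor of basic helix-loop-helix factors, gave 1.62 in PXR-KO mice (adjusted p = 0.0194) and 0.06 in WT mice (adjusted p = 0.912) by the probe set of the list. Its probe set 1435176_a_at gave 1.18 in PXR-KO mice (adjusted p = 0.0288) and, with the other sign, -0.54 in WT mice (adjusted p = 0.0738). Neo1, a hemojuvelin-binding receptor also named after its value was seen, gave -0.89 in PXR-KO mice (adjusted p = 0.0443) and -0.04 in WT mice. The PXR-KO count of 3 was 0 without CMP013 replicate 2 or 4 and 1 without vehicle replicate 1, 4 or 5, and the WT count of 9 was 5 without vehicle replicate 4.

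**Figure D4:**
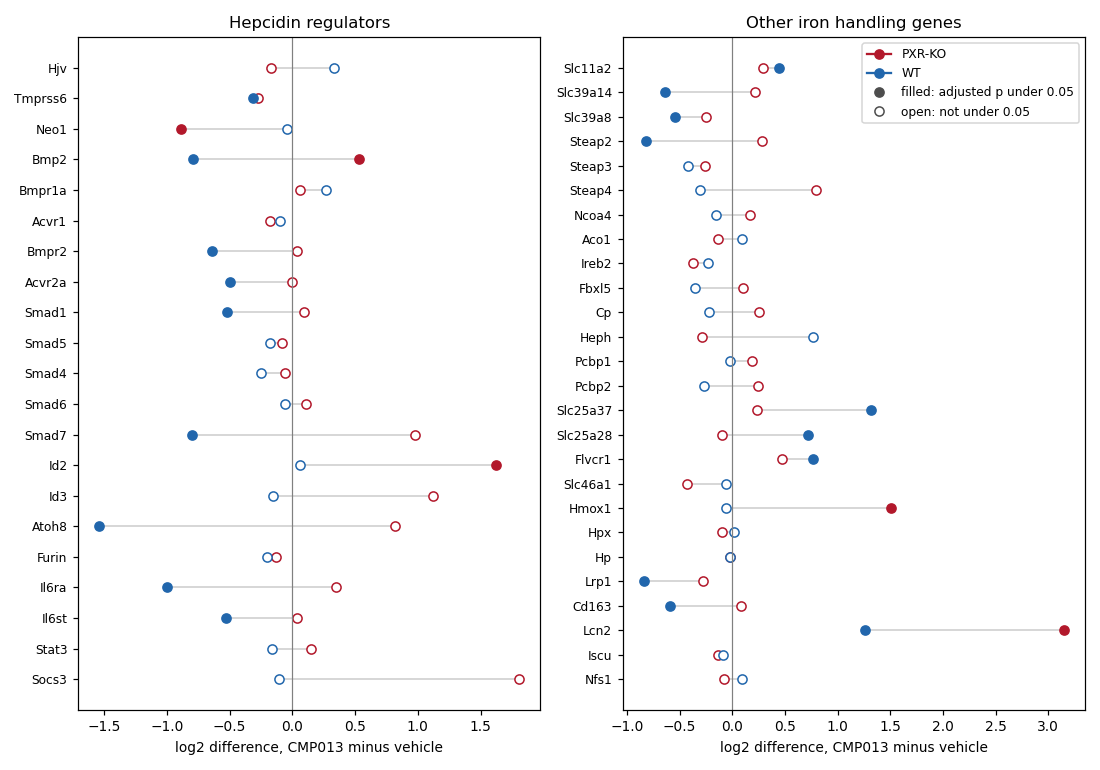
Log2 difference of CMP013 minus vehicle (horizontal axis) of 21 hepcidin regulators (left) and 26 other iron handling genes (right) in PXR-KO and WT mice, n = 5 per group, filled where the adjusted p was under 0.05 and joined by a line per gene. Among the regulators, 9 filled WT points lie below 0 and none above, and Atoh8 lies at 0.82 in PXR-KO mice and at -1.54 in WT mice.

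Among 28 other iron handling genes 26 were measured. In PXR-KO mice 2 rose (Hmox1 and Lcn2) and none fell, and in WT mice 5 rose (Slc25a37, Slc25a28, Lcn2, Slc11a2 and Flvcr1) and 5 fell (Lrp1, Slc39a14, Slc39a8, Cd163 and Steap2). The share called was 7.69% in PXR-KO mice and 38.5% in WT mice, beside 3.65% and 14.4% of all probe sets. The difference of responses was positive for 5 and negative for 2 (26.9% called, beside 11.0% of all). The median log2 difference of the list was 0.09 in PXR-KO mice and -0.08 in WT mice. The mitochondrial iron importers mitoferrin 1 (Slc25a37) and mitoferrin 2 (Slc25a28) rose in WT mice only by the test. Slc25a37 gave 0.23 in PXR-KO mice (adjusted p = 0.373) and 1.32 in WT mice (adjusted p = 0.000531), with a difference of -1.09 (adjusted p = 0.00201). Slc25a28 gave -0.10 in PXR-KO mice (adjusted p = 0.605) and 0.72 in WT mice (adjusted p = 0.000652), with a difference of -0.81 (adjusted p = 0.000177). Importers of iron not bound to transferrin went both ways in WT mice, where Slc39a14 and Slc39a8 fell and Slc11a2, the importer DMT1, rose. Slc39a14 gave 0.22 in PXR-KO mice (adjusted p = 0.59) and -0.64 in WT mice (adjusted p = 0.00159), and Slc39a8 gave -0.25 in PXR-KO mice (adjusted p = 0.149) and -0.54 in WT mice (adjusted p = 0.00261). Slc11a2 gave 0.29 in PXR-KO mice (adjusted p = 0.25) and 0.44 in WT mice (adjusted p = 0.0218).

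Hmox1, the heme oxygenase that frees iron from heme, gave 1.51 in PXR-KO mice (adjusted p = 0.00482) and -0.06 in WT mice (adjusted p = 0.828), with a difference of 1.57 (adjusted p = 0.000397). Lrp1, the receptor for heme carried by hemopexin, gave -0.28 in PXR-KO mice (adjusted p = 0.294) and -0.84 in WT mice (adjusted p = 0.000246). Named after its value was seen, Lcn2, which binds iron-loaded siderophores, gave 3.15 in PXR-KO mice (adjusted p = 0.0129) and 1.26 in WT mice (adjusted p = 0.0185), and the difference of 1.89 did not pass (adjusted p = 0.0623).

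A list of acute phase genes, many of which respond to interleukin 6, was counted beside Hamp. Which cells made each transcript was not measured, so the list is not a reading of hepatocytes alone. In PXR-KO mice 1 of 12 rose (Saa3) and none fell, in WT mice 2 rose (Orm2 and Apcs) and 5 fell (Saa4, Serpina3n, Fgb, Crp and Saa1), and the difference was positive for 6 and negative for none. The share called was 8.33% in PXR-KO mice, 58.3% in WT mice and 50.0% for the difference, beside 3.65%, 14.4% and 11.0% of all probe sets. The median log2 difference was 0.32 in PXR-KO mice and -0.31 in WT mice. Saa1 gave 1.20 in PXR-KO mice (adjusted p = 0.169) and -1.44 in WT mice (adjusted p = 0.0385), with a difference of 2.65 (adjusted p = 0.0107). Saa3 gave 1.91 in PXR-KO mice (adjusted p = 0.00552) and -0.58 in WT mice (adjusted p = 0.165). The mean log2 ratio over the list ranged from 0.38 to 1.02 in treated PXR-KO mice and from -0.29 to 0.58 in their controls, and from -0.51 to 0.04 in treated WT mice and from -0.17 to 0.23 in WT controls. The part of this list in the Hamp result was not tested. The PXR-KO count was 3 without vehicle replicate 4.

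Markers of other liver cells were counted beside these results, against 3.65% of all probe sets called in PXR-KO mice, 14.4% in WT mice and 11.0% for the difference. The part of each list in the results above was not tested. Of 11 sinusoidal endothelial markers, the cells that make BMP6 and BMP2, 1 rose (Lyve1) and 2 fell (Kdr and Dnase1l3) in PXR-KO mice (27.3% called), and 7 fell in WT mice (63.6%). By sign, 10 genes were negative and 1 positive in PXR-KO mice (median log2 difference -0.25), and all 11 were negative in WT mice (median -0.36). The difference of responses was called for 2, each positive (Lyve1 and Clec4g, 18.2%), with a median of 0.11. The mean log2 ratio over the list ranged from -0.35 to 0.00 in treated PXR-KO mice and from -0.02 to 0.02 in controls, and from -0.42 to -0.29 in treated WT mice and from -0.13 to 0.08 in controls. The PXR-KO count of 3 was 1 without any 1 of 9 animals, all but CMP013 replicate 5. Of 11 markers of Kupffer cells, resident macrophages that express ferroportin, 2 rose in PXR-KO mice (Marco, at 4.22 with adjusted p = 0.00894, and Cd68, at 1.11 with adjusted p = 0.00381) and 3 fell in WT mice (Csf1r, Vsig4 and Clec4f). The share called was 18.2% in PXR-KO mice and 27.3% in WT mice. Their mean ranged from 0.30 to 0.68 in treated PXR-KO mice and from -0.54 to 0.58 in controls. In WT mice it ranged from -0.47 to -0.13 in treated animals and from -0.40 to 0.20 in controls. Marco alone ranged from -2.38 to 1.47 in PXR-KO controls and weighs on the PXR-KO mean. The median log2 difference of the list in PXR-KO mice was 0.24, with 7 genes positive and 4 negative. Clec4f (-0.28) and Csf1r (-0.19) were among the negative ones and did not pass. The WT count of 3 was 1 without vehicle replicate 4. The difference of responses was called for 3, all positive (Cd68, Marco and Vsig4, 27.3% of the list), and for 5 without PXR-KO vehicle replicate 5.

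Of 10 cell division markers 9 were measured, and in dividing cells Tfrc is known to be high. In PXR-KO mice 1 fell (Ccna2), in WT mice 5 rose (Ccnb2, Ccna2, Birc5, Cdk1 and Mki67), and the difference was negative for the same 5. The share called was 11.1% in PXR-KO mice and 55.6% in WT mice and for the difference, beside 3.65%, 14.4% and 11.0% of all probe sets. Their mean log2 ratio ranged from -0.94 to -0.29 in treated PXR-KO mice and from -0.12 to 0.13 in controls, and from 0.37 to 1.39 in treated WT mice and from -0.43 to 0.25 in controls. The part of the list in the Tfrc result was not tested. The PXR-KO count was 0 without vehicle replicate 5 or CMP013 replicate 4 and 2 without CMP013 replicate 2 or 5.

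Of 11 erythroid markers 8 were measured, with 1 lower in PXR-KO mice (Alas2, at -1.71 with adjusted p = 0.00964) and 2 lower in WT mice (Alas2, at -1.07 with adjusted p = 0.00499, and Klf1, at -0.87 with adjusted p = 0.000631). That is 12.5% called in PXR-KO mice and 25.0% in WT mice, beside 3.65% and 14.4% of all probe sets. Alas2 encodes the erythroid form of the first enzyme of heme synthesis. Their mean ranged from -0.82 to -0.09 in treated PXR-KO mice and from -0.13 to 0.13 in controls, and from -0.54 to -0.31 in treated WT mice and from -0.08 to 0.10 in controls. Of 10 hepatocyte markers 9 were measured, with none called in PXR-KO mice and 1 lower in WT mice (Hnf4a, at -0.45 with adjusted p = 0.0199), and the 11.1% called in WT mice lies near the 14.4% of all probe sets. The hepatocyte mean ranged from -0.09 to -0.02 in treated PXR-KO mice and from -0.06 to 0.04 in controls, and from -0.22 to -0.10 in treated WT mice and from -0.07 to 0.08 in controls.

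**Figure D5:**
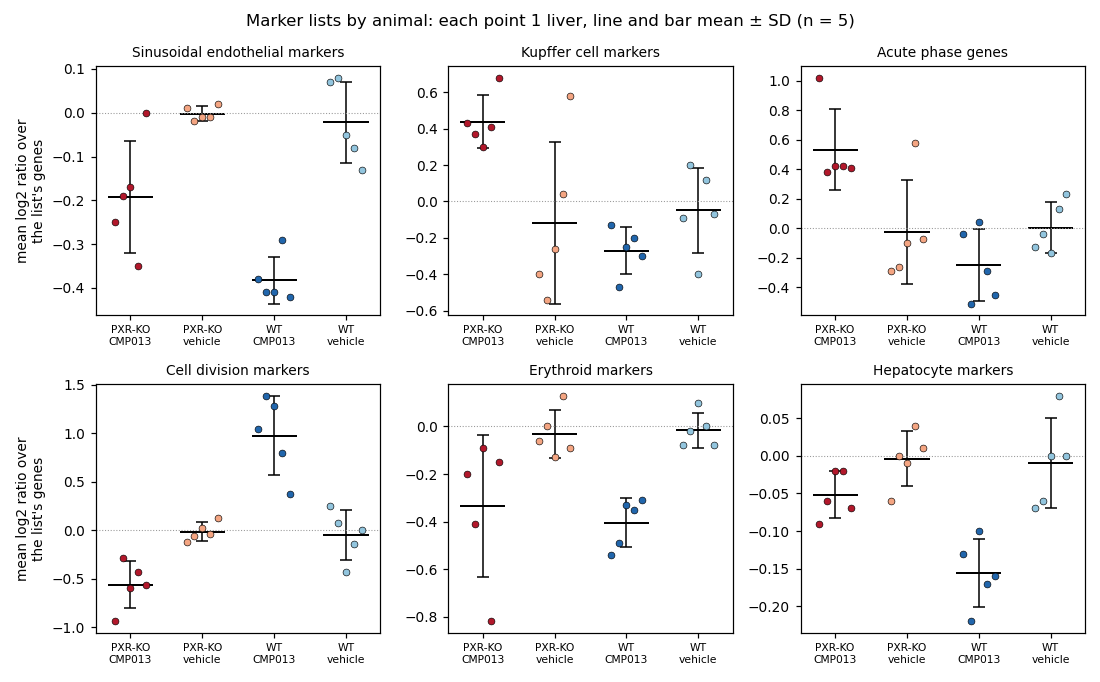
Mean log2 ratio over each list's genes (vertical axis) for every liver in the 4 groups, with mean and SD (n = 5). Cell division markers lie at -0.94 to -0.29 in treated PXR-KO mice and at 0.37 to 1.39 in treated WT mice. Endothelial markers lie at -0.35 to 0.00 in treated PXR-KO mice and, below all WT controls, at -0.42 to -0.29 in treated WT mice.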

How the data were processed

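Log10 ratios were used as deposited: the authors made them in Rosetta Resolver 7.2 from the intensity of each animal over the mean of the 5 vehicle animals of its genotype. All 20 arrays and 45037 probe sets were kept without a filter, and values were multiplied by the log2 of 10 (3.3219), 7 of them at the limit of 2 in size. Neither intensities nor platform p-values were used, signal over background is therefore unknown, and the number of arrays limits precision. The counting rule and SAM of the methods were not run.

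Differences were tested with limma 3.58.1 (R 4.3.3, lmFit and eBayes, Benjamini-Hochberg over all probe sets, adjusted p under 0.05) in each genotype on 10 arrays, and PXR-KO minus WT responses on 20. The test was tested on simulated data. Replicates are separate mice, and replicate numbers were checked for pairing by correlating deviations from group means. Every probe set of the genes was named, and in each list up to 6 called genes with the smallest adjusted p. Beyond these, genes making up a count of 5 or fewer in 1 direction were named after their values were seen. Bmpr1a and Acvr1, which were not called, were also named in that way. A list gene was measured by 1 probe set naming no other gene, without an _s_ or _x_ mark first, then with the smallest SD in vehicle groups. That choice can favour a call, and the shares over all probe sets involve no such choice. Of 115 list genes 107 were measured. Members and lists were chosen with earlier results of these data known. Alternatives were array weights, a common median, quantile normalization, a replicate block, trend and robust variances, 1 fit of all groups, 4 vehicle animals left out, only probe sets naming 1 gene, a size threshold of 1.25-fold (a log10 ratio of 0.097), the mean of a gene's probe sets, and each animal left out. Python 3.11.15, pandas 2.3.3, Biopython 1.88 (alignment) and matplotlib 3.10.9 were used.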

Additional observations from a re-analysis of the deposited data

Results flagged for a closer look

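Single animals stood apart from the other 4 of their group by Dixon's criterion in 5 of 68 groups of 5, and chance gives about 1 in 20. Tfrc 1452661_at was -0.20 in WT vehicle replicate 1, against 0.07 to 0.16 in the others. Tfr2 1459994_x_at was -0.49 in WT CMP013 replicate 5, against -0.37 to -0.32. Slc40a1 1417061_at was 0.68 in PXR-KO CMP013 replicate 2, against 0.31 to 0.41. Slc40a1 1448566_at was 0.12 in WT vehicle replicate 2, against -0.05 to -0.02. Id1 was -0.28 in WT vehicle replicate 3, against -0.02 to 0.08.

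The responses to CMP013 differed between the genotypes by limma's interaction test at 12 probe sets, as PXR-KO minus WT on the log2 scale. The difference was positive for Hamp (1.17 and 1.36), Hamp2 1436643_x_at (2.72), Tfr2 1459994_x_at (0.43), Slc40a1 (1.17 and 1.27), Bmp6 (1.08) and Id1 (2.51). It was negative for Tfrc (-0.73 for 1422966_a_at and -1.30 for 1452661_at) and Hfe (-0.42 for 1422645_at and -1.27 for 1450702_at).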

How the results depend on the processing

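No called probe set reversed under any alternative. Of the calls, 0 of 3 in PXR-KO mice, 6 of 14 in WT mice and 7 of 12 for the difference were kept under every alternative run. The PXR-KO count of 3 became 0 after quantile normalization, with the replicate block, with trend and robust variances (which called 0 of all probe sets) and without the 4 vehicle animals, and 6 with all 4 groups in one fit. The WT count of 14 became 7 after quantile normalization and 8 without the 4 vehicle animals, and the difference count of 12 became 7 after quantile normalization. With 1 animal left out, the counts were 0 to 2 in PXR-KO mice, 11 to 13 in WT mice and 10 to 12 for the difference. The cause of these shifts was not tested. Same-numbered animals did not deviate together (correlations -0.202 to 0.0471 in PXR-KO mice and -0.242 to 0.0651 in WT mice), so the numbers do not pair them. With the replicate block the counts were 0, 10 and 12, and calls over all probe sets were 119 instead of 1645 in PXR-KO mice, 3026 instead of 6480 in WT mice and 3990 instead of 4936 for the difference. Over all probe sets, quantile normalization called 495 in PXR-KO mice, 1773 in WT mice and 1231 for the difference, and leaving out the 4 vehicle animals called 363, 3308 and 2544. Of the lists, after quantile normalization, with the replicate block and without the 4 vehicle animals, hepcidin regulators called were 1, 0 and 0 instead of 3 in PXR-KO mice, 4, 4 and 6 instead of 9 in WT mice and 2, 10 and 7 instead of 12 for the difference. Acute phase genes were 2, 1 and 3 instead of 7 in WT mice and 1, 4 and 5 instead of 6 for the difference, endothelial markers 1, 0 and 1 instead of 3 in PXR-KO mice and 2, 3 and 3 instead of 7 in WT mice, and Kupffer cell markers 2, 1 and 1 instead of 2 in PXR-KO mice and 0, 0 and 2 instead of 3 in WT mice. Other iron genes were 5, 8 and 7 instead of 10 in WT mice and 3, 7 and 5 instead of 7 for the difference, and cell division markers 3, 4 and 3 instead of 5 in WT mice. Trend and robust variances called 0 genes of every list in PXR-KO mice.

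Sign changes were limited to probe sets that were not called. Without the 4 vehicle animals, Tfrc 1422967_a_at was -0.07 in PXR-KO mice, Hamp2 1456289_at was -0.02 in WT mice and Fth1 1427021_s_at was 0.05 in WT mice. With 1 animal left out, Tfr2 1459994_x_at in PXR-KO mice was 0.00 to 0.10, Hamp2 1456289_at in WT mice -0.07 to 0.11 and Fth1 1427021_s_at in WT mice -0.07 to 0.03. Dim probe sets could not be told from bright ones, since the files used hold ratios.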
